A study of Rattus norvegicus with 20 samples.

Results

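The genes described here encode subunits of the mitochondrial respiratory chain and of ATP synthase, with a few assembly factors that share their names. They were taken by name from the array: every gene whose symbol began with Nduf, Sdh, Uqcr, Cox followed by a digit, or Atp5. This gave 73 genes, read by 83 probes, out of 35561 genes and 41012 probes. Where a gene had several probes, the brightest over all arrays stood for it. By the role their names give, 31 genes belonged to complex I, 4 to complex II, 5 to complex III, 15 to complex IV and 13 to ATP synthase. Of the rest, 4 were assembly or coupling factors, and 1 (Cox4nb) was set apart as sharing only the prefix. The 15 of complex IV, and the values for that complex, include the Cox6b probe and Cox6c1, which matched something else, as given below.

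The cells were primary cultures from the hearts of neonatal rats, grown for 1 day in DMEM medium and labelled cardiomyocyte. RNA from 20 samples was hybridised to single-colour arrays. Of these, 2 samples were untreated and 3 came from each of 6 celecoxib groups, treated with a reference concentration of 1, 1/5 or 1/25 for 6 h or 24 h. Celecoxib is an inhibitor of cyclo-oxygenase 2. The absolute concentrations, the vehicle, the strain and the time of the untreated samples are not in the labels, and nothing in them says whether replicates were separate cultures, so p-values measure no more than the spread between samples, possibly technical.

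Electrons from NADH enter the respiratory chain at complex I and those from succinate at complex II. They pass through ubiquinone to complex III and through cytochrome c to complex IV, which reduces oxygen. Complexes I, III and IV pump protons across the inner mitochondrial membrane, and ATP synthase uses the return flow to make ATP. Heart muscle depends on this route for most of its energy. The core subunits encoded by mitochondrial DNA are not among these genes, which are all nuclear.

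Names on the array were those of its design, and several ATP synthase genes have since been renamed in RefSeq (Atp5a1 is Atp5f1a, Atp5b is Atp5f1b, Atp5g1 is Atp5mc1 and Atp5s is Dmac2l). RefSeq's GRCr8 tables matched 46 of the 73 genes by accession, 23 by symbol, 3 by synonym and 1 by the gene ID in the probe's description. For 3 genes the match was to something else. Cox4nb is Emc8, a subunit of a membrane protein complex of the endoplasmic reticulum. Cox6c1 is listed as a transcribed pseudogene of Cox6c. The probe named Cox6b is described in the files as similar to uroplakin Ia, and its gene ID is that of Upk1a, a membrane protein gene of urothelium. In GRCr8, Upk1a lies on chromosome 1 from 94987110 to 94998083, next to Cox6b1 at 95002513 to 95011516. The probe is shown because it gave the lowest difference in 5 of the 6 comparisons with untreated samples. It maps to chr1:85733074-85733133, minus strand, in the rn3 build named in the file headers.
Cox6b probe: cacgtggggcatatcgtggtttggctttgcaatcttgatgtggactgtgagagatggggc

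Cox8h, now Cox8b, is the isoform of complex IV subunit 8 of heart and skeletal muscle, and it was read by 3 probes. They are shown because the brightest, which stands for the gene, was designed on an expressed sequence tag and reads the strand opposite to the mRNA probe. In rn3 coordinates the mRNA probe lies at chr1:201207352-201207411 on the minus strand. The others lie on the plus strand at chr1:201207391-201207450 and chr1:201207411-201208612. Capitals mark, in the mRNA probe and the first tag probe, the 21 bases that are reverse complements of each other, and in the second tag probe the 40 bases it shares with the first.
Cox8h mRNA probe: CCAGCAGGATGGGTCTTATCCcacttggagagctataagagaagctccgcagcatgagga
Cox8h tag probe, not chosen: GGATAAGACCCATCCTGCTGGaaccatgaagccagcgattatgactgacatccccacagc
Cox8h tag probe, chosen: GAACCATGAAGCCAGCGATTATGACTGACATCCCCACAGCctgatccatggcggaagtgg
The levels of the 3 Cox8h probes nevertheless moved together over the 20 arrays, with Pearson's r against the chosen probe of 0.983 and 0.982, given as a description. Of the 62 genes for which both strands were known, 6 had a probe opposite to the RefSeq strand (Cox15, Cox7a2l, Cox8h, Ndufa1, Ndufa11 and Uqcrh), so those probes may read another transcript.

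Promoter sequence was searched for 4 motifs, each found in a minority of the genes. RefSeq promoters (GRCr8, 250 bases before to 50 after the start) were at hand for 62 of the 73 genes. Searched on both strands, the palindromic site of nuclear respiratory factor 1 occurred in 15 of the 62 (24.2%), against 4.71% of all 27457 promoters. CCGGAAG, bound by factors of the ETS family, occurred in 19 (30.6% against 9.22%), AAGATGGCG, bound by YY1, in 9 (14.5% against 1.93%) and TCAAGGTCA, bound by oestrogen-related receptors, in 2 (3.23% against 0.412%). A match describes these windows only and is not evidence of a bound site.

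Signal was high for this group, and saturation limited what could be measured. All 73 genes passed the filter on dim probes, and 71 were well above background on all 20 arrays. The exceptions were Ndufs4, well above background on 6 arrays, and Ndufs1, on 19. Of the values of these genes, 17.5% were saturated, against 7.18% over all probes. A total of 40 genes were saturated on no array, 27 on 1 to 19 arrays, and 6 on all 20: Atp5g2 (subunit c of ATP synthase), Atp5o (its stalk subunit), Cox7a2 (complex IV), and Ndufa5, Ndufb3 and Ndufb8 (complex I). For these 6 genes no size of change is given. Their mean signal before scaling stayed between 15.8 and 16.02 on the log2 scale, while the array's 75th percentile, which is subtracted, ran from 12.9 to 14.1. Their mean scaled value therefore followed that percentile, with Pearson's r of -0.97 over the 20 arrays.

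The arrays were scanned on 2 days. Over all tested genes the first principal component carried 30.2% of the variance, and the scan days accounted for 97.8% of that component. Day 1 took in the 2 untreated arrays and the 9 of 24 h. Day 2 held 1 array of concentration 1 for 6 h, all 3 of 1/5 for 6 h and 2 of 1/25 for 6 h. The 24 h groups can therefore be compared with untreated samples within a scan day, the 6 h groups only in part, and 1/5 for 6 h not at all. Both untreated arrays lay on slide 1 and the 24 h arrays on slides 2 to 4. Treatment for 24 h and slide therefore cannot be told apart. Concentrations 1 and 1/25 shared no slide at either time, so dose and slide cannot be told apart there. Probes well above background made up 63.4% to 83.1% of each array, and precision is limited by the small number of arrays. Of the markers of heart muscle cells, 15 of 15 were well above background on every array. So were 5 of 9 fibroblast markers, 4 of 5 of smooth muscle, 5 of 8 of macrophages and leukocytes, 1 of 6 of endothelium and 1 of 4 of erythroid cells, so the cultures were mixed. Fewer cells of a type and less RNA per cell cannot be told apart in such samples.

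Values below are log2 of the signal minus the array's 75th percentile, and differences are between group means on that scale. The median over the 73 genes was 0.93 and 0.99 on the untreated arrays. At 24 h it was 0.82, 1.20 and 1.17 for concentration 1, between 1.11 and 1.14 for 1/5, and between 1.19 and 1.20 for 1/25. All 24 h arrays except 1 of concentration 1 lay above both untreated arrays. At 6 h the day 1 arrays had medians of 1.32 and 1.18 (concentration 1) and 1.35 (1/25), above both untreated arrays. The day 2 arrays had 0.66 (concentration 1), 0.89 to 0.93 (1/5), and 0.77 and 1.62 (1/25). The array with 1.62, replicate 3 of 1/25 for 6 h, also stood apart in having 28 of the 73 genes saturated, against 8 to 18 on the others.

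**Figure D1:**
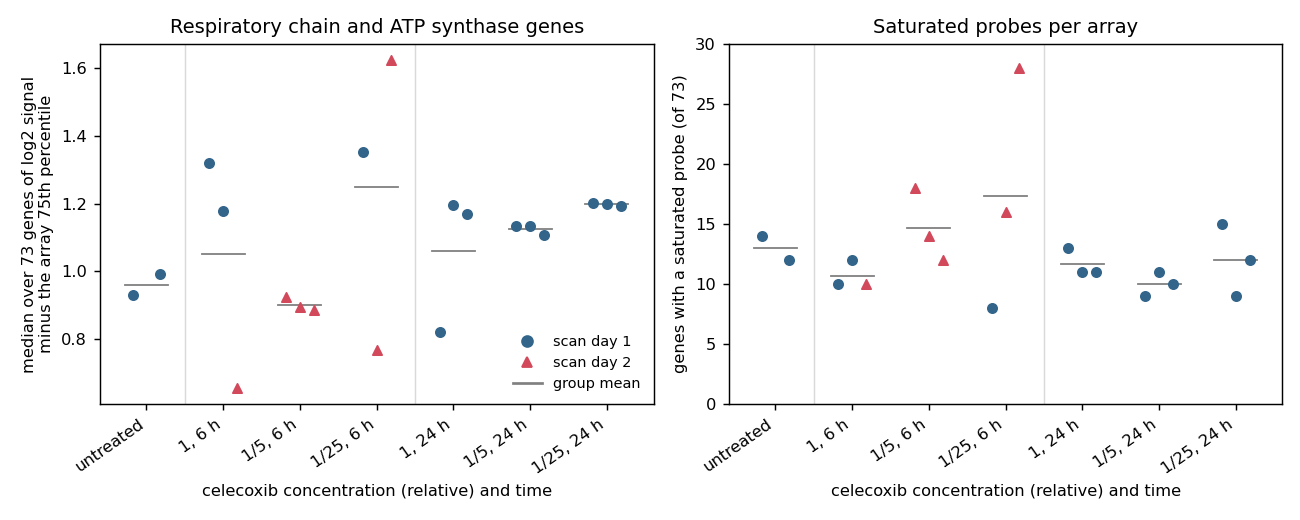
Left, the median over the 73 genes of log2 signal minus the array's 75th percentile, 1 point per array, by celecoxib concentration and time, with the group mean as a bar. Right, the number of the 73 genes whose probe was saturated. The untreated arrays sit at 0.93 and 0.99, and replicate 3 of 1/25 for 6 h sits highest in both panels, with 28 saturated genes.

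After 24 h, none of the 73 genes was called different from untreated samples at any concentration, which at this number of arrays does not show that levels were equal. By limma with Benjamini-Hochberg adjustment over all genes, 0.0649% of 27720 genes were called at concentration 1, 0.281% at 1/5 and 0.285% of 27721 at 1/25. At an unadjusted p below 0.05, 2, 6 and 2 of the 73 genes passed, and 3024, 3984 and 3111 of all genes. The median difference from untreated was 0.13 at concentration 1, 0.24 at 1/5 and 0.12 at 1/25, against 0.00, -0.03 and -0.04 over all genes. Over the 40 genes never saturated it was 0.11, 0.12 and 0.09. The 95% interval lay wholly within 1 log2 unit, a 2-fold change, for 41, 23 and 40 of the 73 genes. That was 56.2%, 31.5% and 54.8%, against 26.6%, 21.4% and 27.3% of all genes. For the 40 genes never saturated the counts were 18, 11 and 20 (45%, 27.5% and 50%). A saturated signal can hide a change.

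Differences were above 0 for 55, 54 and 53 of the 73 genes at concentrations 1, 1/5 and 1/25 for 24 h. The share of all genes was 50.3%, 48.7% and 47.5%. Among the 40 genes never saturated, 26, 23 and 23 were above 0 (65%, 57.5% and 57.5%). Every array of the treated group lay above both untreated arrays for 13 genes at concentration 1 (11.5% of all genes did so), 34 at 1/5 (20.7%) and 24 at 1/25 (14.1%). The reverse held for 6 (16.5%), 6 (18.9%) and 3 (18.6%). Of the 40 genes never saturated, 7, 12 and 9 lay wholly above and 6, 6 and 2 wholly below. The summed level of the 15 heart muscle markers, in units of the array's 75th percentile, was 36.6 to 38.2 on the untreated arrays, and 27.9 to 46.8, 47.2 to 54.4 and 35.8 to 44.8 at 1, 1/5 and 1/25 for 24 h. That of the 9 fibroblast markers was 19.7 to 19.8, and 17.4 to 27.1, 25.7 to 27.3 and 19.8 to 23.5. The sum of macrophage and leukocyte markers was lower, at 5.71 to 5.77 untreated and at most 4.78, 4.68 and 4.85. Its genes did not all fall: 4, 3 and 3 of the 7 tested had differences above 0. Of these 7, 1 was called higher at 1/5 and 1 at 1/25, where 0.281% and 0.285% of all genes were called. The other marker sums overlapped the untreated ones, except endothelium at 1/25, which was lower. Genes of the tricarboxylic acid cycle, which are not cell type markers, gave 35.3 to 36.03, and 33.6 to 45.5, 40.1 to 42.9 and 36.1 to 38.5. The part of cell types or scaling in these counts was not tested. The comparisons share the untreated arrays, which lay on another slide than the 24 h arrays. The saturated genes moved with the scaling, as given above.

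By complex, the median difference at 24 h for concentrations 1, 1/5 and 1/25 was 0.21, 0.31 and 0.13 in complex I, 0.13, 0.16 and 0.19 in complex II, and 0.03, 0.12 and -0.00 in complex III. It was 0.10, 0.34 and 0.20 in complex IV, 0.10, 0.22 and 0.11 in ATP synthase, and 0.26, 0.07 and 0.02 in the assembly and coupling factors. These medians were at most 0.34. The SD of a single gene had a median of 0.36 within groups and 0.27 over the 24 h arrays. That is not the spread of a median over several genes. The array medians over the whole gene list had an SD of 0.04 in untreated samples. At 24 h that SD was 0.21, 0.02 and 0.004 at 1, 1/5 and 1/25. The medians by complex were not tested against their own spread.

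**Figure D2:**
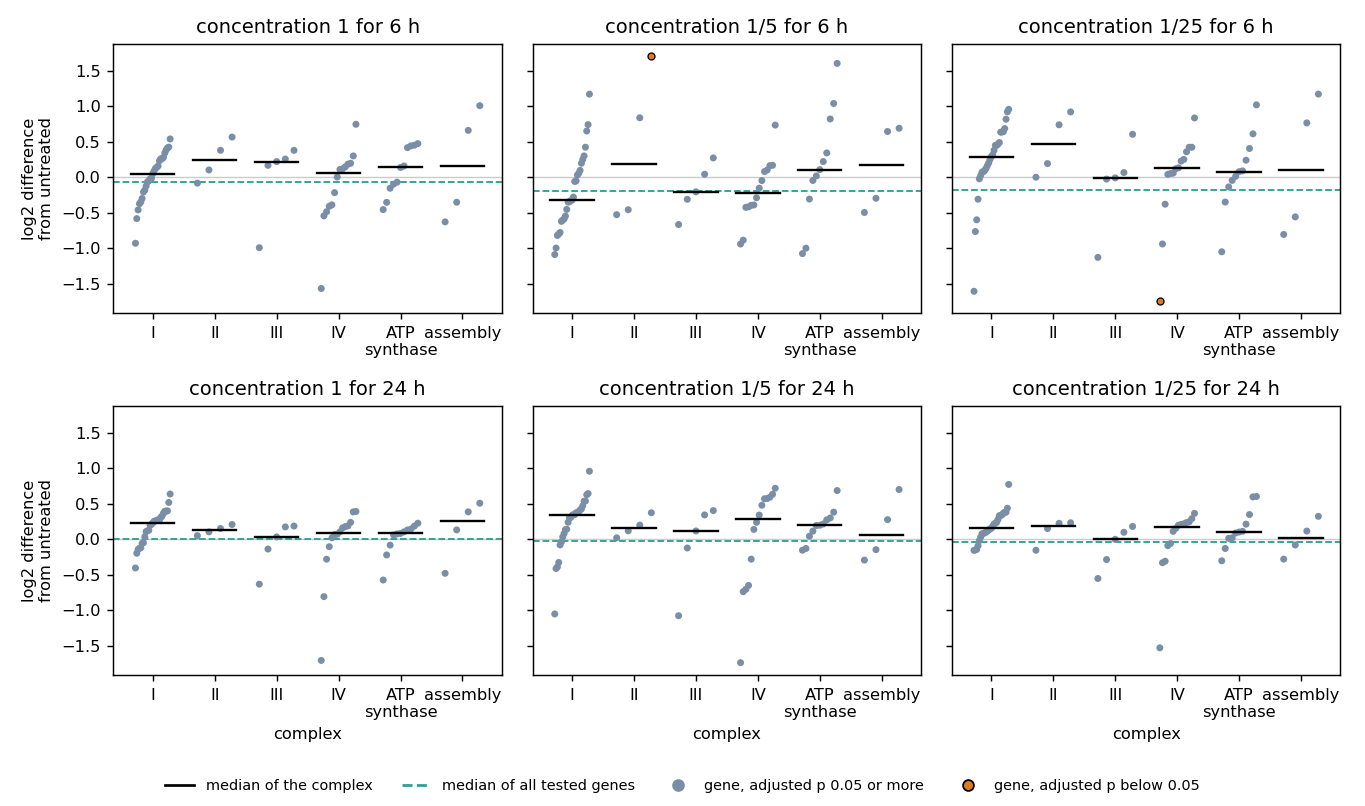
Log2 difference from untreated samples (vertical axis) for each gene, grouped by complex, in the 6 celecoxib groups. Black bars are medians of the genes drawn, the dashed line is the median of all tested genes, and filled orange points have an adjusted p below 0.05. The 6 genes saturated on all arrays, Ndufs4 and Cox4nb are not drawn. Points of genes saturated on every array of both groups compared, such as Uqcrb at 1/5 for 6 h, carry no size. The only 2 orange points are Sdhc at 1/5 and the Cox6b probe at 1/25, both at 6 h.

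In complex I, Ndufv3l (now Ndufv3, an accessory subunit of the NADH-binding module) read 0.63 and -0.11 on the untreated arrays. At 24 h it read 0.68, 0.95 and 1.06 at concentration 1, 1.43, 1.13 and 1.10 at 1/5, and 1.20, 0.84 and 1.06 at 1/25. All 9 arrays of 24 h were above both untreated arrays. The difference was 0.96 ± 0.36 (SE) at 1/5 (adjusted p = 0.233 by limma) and 0.77 ± 0.36 at 1/25 (adjusted p = 0.426). Without the lower of the untreated arrays, replicate 2, the difference at 1/5 was 0.59. Of the catalytic core, Ndufs1 (the largest iron-sulphur subunit) differed from untreated at 24 h by -0.40, -1.05 and 0.03, and Ndufv1 (which binds NADH) by -0.06, -0.41 and -0.14, with overlapping groups throughout. The untreated arrays of Ndufs1 read -1.54 and -3.25, so its reference level was poorly fixed. Ndufs4 was not well above background on any untreated or 24 h array, so no difference is given for it at 24 h.

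In complex II, which is also the succinate dehydrogenase of the citric acid cycle, the 4 genes stayed close to the untreated level at 24 h. Differences at 1, 1/5 and 1/25 were 0.11, 0.12 and 0.23 for Sdha (the flavoprotein), 0.21, 0.20 and 0.15 for Sdhb (the iron-sulphur subunit), 0.15, 0.02 and -0.15 for Sdhc and 0.05, 0.37 and 0.23 for Sdhd (both membrane anchors). None passed the test. The interval for Sdha at concentration 1, -0.56 to 0.77, excluded a 2-fold change either way.

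In complex III, Uqcrc1 (a core subunit) was the lowest gene. It read -0.09 and -0.35 on the untreated arrays. At 24 h it read -0.52, -0.50 and -1.55 at concentration 1, -1.65, -1.29 and -0.96 at 1/5, and -0.20, -1.39 and -0.73 at 1/25. Of the 18 celecoxib arrays of both times, 17 lay below both untreated arrays, and the exception was replicate 1 of 1/25 for 24 h. The difference at 1/5 for 24 h was -1.08 ± 0.38 (SE, adjusted p = 0.217 by limma). The other core subunit, Uqcrc2, differed by 0.18, 0.12 and 0.00 at 1, 1/5 and 1/25, and the Rieske protein gene Uqcrfs1 by 0.03, -0.12 and -0.29.

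Complex IV has subunits with isoforms for different tissues, and at 24 h no isoform passed the test. Cox4i2, the form of subunit 4 known from lung and from hypoxic cells, read 1.55 and 1.08 on the untreated arrays and 0.29, 0.73 and 0.49 at concentration 1 for 24 h. It read 0.49, 0.69 and 0.80 at 1/5, also below both untreated arrays, and 1.00, 1.14 and 0.87 at 1/25, which overlapped them. The difference at concentration 1 was -0.81 ± 0.26 (SE, adjusted p = 0.232 by limma). The common form, Cox4i1, differed by 0.39, 0.14 and 0.22 at 1, 1/5 and 1/25. The muscle form Cox6a2 differed by -0.28, -0.71 and -0.33, and the common form Cox6a1 by 0.16, 0.57 and 0.21. The probe chosen for the muscle form Cox8h differed by 0.07, 0.72 and -0.09, and the common form Cox8a by 0.19, 0.34 and 0.16. The Cox8h probe read 2.41 and 0.70 on the untreated arrays, so its reference level was poorly fixed. It lies opposite to the RefSeq strand and may read another transcript. For the other named subunits the differences at 1, 1/5 and 1/25 were 0.10, -0.28 and 0.20 for Cox5b, -0.10, 0.64 and 0.29 for Cox6c, and 0.02, 0.48 and 0.25 for Cox7b, none of them called. Cox7a2l, a factor that joins complexes III and IV in supercomplexes, was saturated on 16 arrays. These took in every untreated array and every array of concentration 1 for 24 h, so no size is given there. Its differences of 0.59 and 0.37 at 1/5 and 1/25 are compressed or scaled by that limit. Cox6b2, known from testis, differed by 0.18, -0.74 and 0.24. Cox7a1, Cox7c and Ndufa4 were not analysed here.

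The Cox6b probe read -0.18 and -1.58 on the untreated arrays. At 24 h it read -2.48, -2.12 and -3.18 at concentration 1, -2.70, -2.66 and -2.51 at 1/5, and -1.84, -2.77 and -2.63 at 1/25. All 9 arrays were below both untreated arrays. The differences were -1.71, -1.74 and -1.53, each ± 0.49 (SE), with adjusted p of 0.186, 0.142 and 0.215 by limma. They were -1.01, -1.04 and -0.83 without untreated replicate 1 and -2.41, -2.44 and -2.23 without untreated replicate 2. By its description this probe measures Upk1a, and Cox6b1 itself was not analysed here.

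In ATP synthase, the catalytic core genes Atp5a1 and Atp5b differed from untreated at 24 h by 0.08, 0.04 and 0.02 and by 0.15, 0.27 and 0.60 at 1, 1/5 and 1/25. The 3 genes Atp5g1, Atp5g2 and Atp5g3 encode the same subunit c with different import sequences. Atp5g1 read 1.51 and 1.13 on the untreated arrays. At 24 h it read 0.82, 1.31 and 1.16 at concentration 1, 2.20, 2.23 and 1.59 at 1/5, and 2.30, 1.84 and 1.62 at 1/25. The groups given 1/5 and 1/25 lay wholly above the untreated arrays and the group given 1 did not. Atp5g3 differed by -0.57, 0.22 and -0.30, and Atp5g2 was saturated on every array.

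A 25-fold difference in dose, concentration 1 against 1/25, was examined within each time, and no gene was called among all 27726 tested at 24 h or among 27727 at 6 h (0% of each). At an unadjusted p below 0.05, 2 of the 73 genes passed at 24 h and 5 at 6 h, and 813 and 1744 of all genes. At 24 h the median difference over the 73 genes was 0.00, and 70 of 73 differences were smaller than 0.5. The 95% interval lay wholly within 1 log2 unit for 55 of the 73 genes (75.3%), against 44.9% of all genes. It did so for 27 of the 40 genes never saturated (67.5%). For the saturated genes it does not exclude a 2-fold change. Atp5g1 differed by -0.82 ± 0.33 (SE, adjusted p = 1 by limma), and its groups did not overlap. Cox4i2 differed by -0.50 ± 0.23 and Atp5s by 0.59 ± 0.31. Every array of concentration 1 lay above every array of 1/25 for 3 genes (6.29% of all genes) and below for 6 (6.05%). Across the 3 concentrations at 24 h, 9 genes were ordered upwards from 1 to 1/25 and 9 downwards. At 6 h the median difference was -0.07, and concentration 1 lay wholly above 1/25 for 2 genes (2.77% of all genes) and wholly below for 0 (1.36%). Ndufab1 (the acyl carrier protein) differed by -1.01 ± 0.33, Ndufs1 by 1.31 ± 0.56 and Atp5g1 by -0.77 ± 0.33, each with an adjusted p of 0.783 by limma. The difference of this dose effect between 24 h and 6 h was called for none of the 73 genes and none of all genes, with 1 and 982 at an unadjusted p below 0.05. Its nearest among the 73 were Ndufs1 (-1.75 ± 0.79), Cox6c1 (0.96 ± 0.53) and Ndufa9 (0.58 ± 0.33).

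After 6 h, the comparisons with untreated samples called 0, 1 and 1 of the 73 genes at concentrations 1, 1/5 and 1/25, where 0.44%, 6.59% and 6.06% of all genes were called. At an unadjusted p below 0.05, 5, 14 and 11 of the 73 passed, and 5149 of 27720, 6687 of 27721 and 8085 of 27722 of all genes. The median difference was 0.10, -0.15 and 0.13, against -0.07, -0.20 and -0.18 over all genes. When scan day entered the fit as a block, these medians became 0.17, 0.28 and 0.50. Treated arrays all lay above both untreated arrays for 10 of the 73 genes at concentration 1 (9.94% of all genes did so), 17 at 1/5 (19.7%) and 10 at 1/25 (10.4%), and below for 6 (16.8%), 27 (31.7%) and 7 (19.1%). Of the 40 genes never saturated, 4, 11 and 5 lay above and 6, 15 and 6 below.

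At concentration 1 the comparison could be made on a single slide, which held both untreated arrays and replicates 1 and 2 of concentration 1 for 6 h. There the median difference was 0.28 over the 73 genes and -0.02 over all genes. Both treated arrays lay above both untreated arrays for 38 of the 73 genes (26.2% of all genes), and below for 11 (27.5%). Of the 40 genes never saturated, 14 lay above and 11 below, and their median difference was 0.04. Cox5a (complex IV) read 1.24 and 1.28 on the untreated arrays and 2.17, 1.84 and 2.02 on the 3 arrays of concentration 1. It read 1.99, 2.07 and 1.93 at 1/5 and 2.21, 2.01 and 2.07 at 1/25. The 9 arrays of 6 h lay above both untreated arrays on both scan days. The difference was 0.75 ± 0.25 (SE, adjusted p = 0.151 by limma) at concentration 1 and 0.84 at 1/25, and with scan day as a block the adjusted p was 0.0531 and 0.0423. At 24 h Cox5a differed from untreated by 0.24, 0.58 and 0.11 at 1, 1/5 and 1/25.

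The Cox6b probe fell at 1/25 for 6 h, by 1.74 ± 0.49 (SE, adjusted p = 0.0476 by limma), with values of -2.53, -2.06 and -3.28. The call did not hold without untreated replicate 1, where the difference was -1.04 (adjusted p = 0.507), nor without replicate 3 of 1/25 (-1.41, adjusted p = 0.169), nor with scan day as a block (-1.78, adjusted p = 0.0626). At concentrations 1 and 1/5 for 6 h it differed by -1.57 and -0.89, and without untreated replicate 2 the first of these became -2.27 (adjusted p = 0.0440 by limma). Leaving out 1 array of 1/25 changed which genes were called. Without replicate 1, which was the only day 1 array of that group, 9 of the 73 genes were called, as were 13.6% of all genes: Atp5g3, Sdhc, Ndufs6, Atp5s and Sdhd were higher, and Cox6b, Ndufs1, Atp5a1 and Cox17 lower. Without replicate 2, 8 were called where 16.8% of all genes were (Cox5a, Ndufab1, Ndufb2, Ndufb5, Ndufb7 and Ndufs5b higher, Cox6b and Cox15 lower). With scan day as a block, 5 were called, against 11.6% of all genes, and all were higher: Cox5a, Cox7a2, Ndufa1, Ndufa6 and Ndufaf1. Of these, Cox7a2 was saturated on every array, so its call does not show a rise.

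Sdhc rose at 1/5 for 6 h, by 1.71 ± 0.50 (SE, adjusted p = 0.0495 by limma). It read -0.02 and 0.09 on the untreated arrays and 1.84, 1.59 and 1.80 at 1/5. All 3 of those arrays were scanned on day 2. Over all groups Sdhc read 1.38 to 1.84 on the 6 day 2 arrays and -0.44 to 0.55 on the 14 day 1 arrays, with no overlap. Within the groups scanned on both days, the array of concentration 1 on day 2 read 1.66 against 0.29 and -0.15, and those of 1/25 read 1.38 and 1.69 against -0.20. With scan day as a block the difference from untreated was 0.05 (adjusted p = 0.949). The call was also lost when any 1 of the 5 arrays compared was left out.

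**Figure D3:**
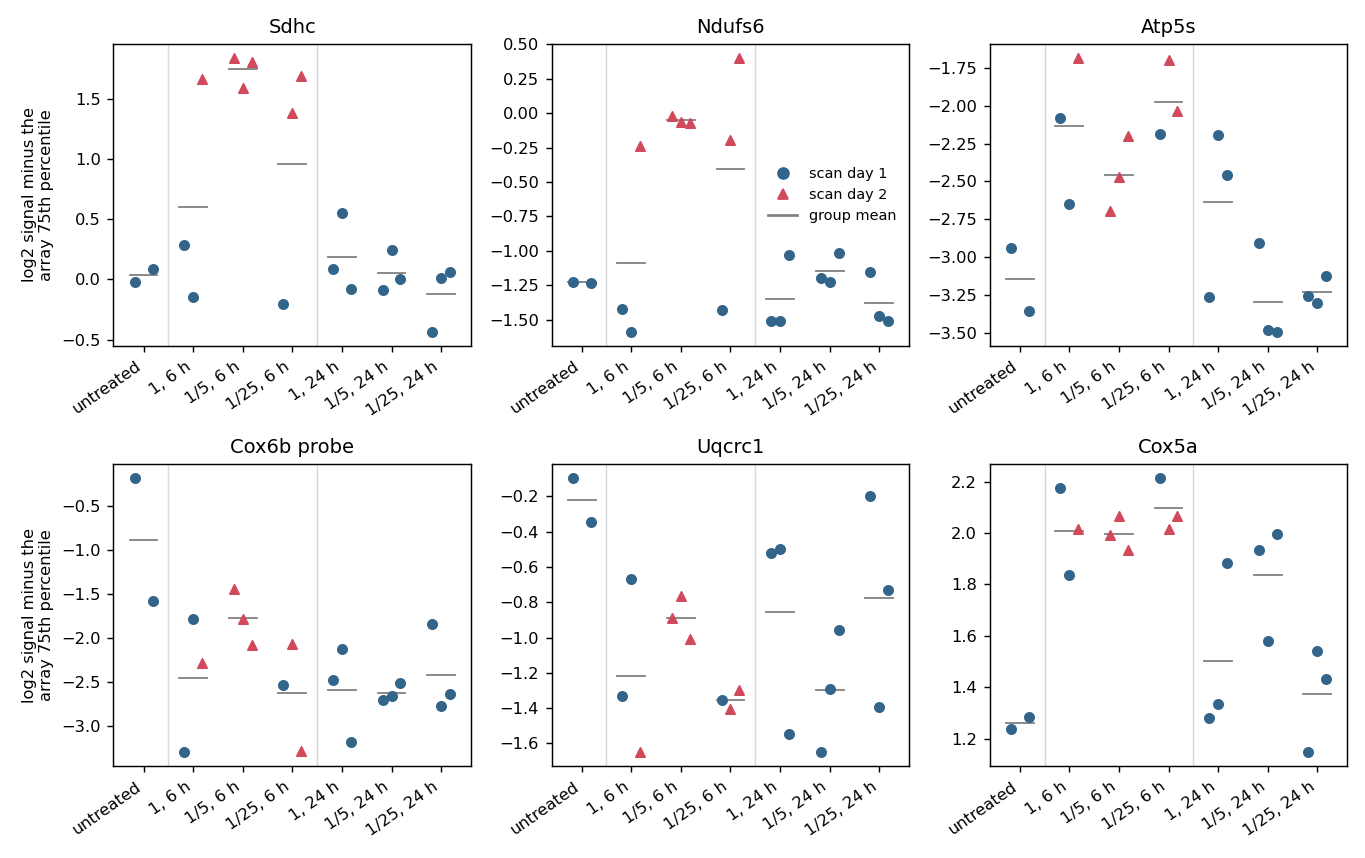
Log2 signal minus the array's 75th percentile for 6 genes, 1 point per array, by celecoxib concentration and time, with bars at group means. Blue circles were scanned on day 1 and red triangles on day 2. Sdhc reads 1.38 to 1.84 on day 2 and at most 0.55 on day 1 whatever the treatment, and Ndufs6 parts in the same way, while Cox5a and the Cox6b probe do not part by day.

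Between 24 h and 6 h, 0, 3 and 1 of the 73 genes were called at concentrations 1, 1/5 and 1/25, where 0.18%, 4.75% and 2.46% of all genes were. The 24 h arrays lay wholly above those of 6 h for 3 genes at concentration 1 (7.42% of all genes), 35 at 1/5 (27.7%) and 4 at 1/25 (10.9%). They lay wholly below for 2 (6.36%), 12 (21.1%) and 5 (9.01%). At 1/5 the 6 h arrays were all scanned on day 2 and the 24 h arrays all on day 1, so time and scan day cannot be told apart there. Sdhc fell by 1.69 ± 0.45 (SE, adjusted p = 0.046 by limma), and with scan day as a block, estimated from the other groups, the difference was -0.02. Ndufs4, an accessory subunit needed for a stable complex I, was at least 2.84-fold lower at 24 h (adjusted p = 0.024). This bound sets the 6 h mean against the lowest signal well above background, since Ndufs4 was not well above background on any untreated or 24 h array, and its measured means were -3.80 at 6 h and -6.53 at 24 h. The 6 arrays on which it was well above background were the 6 of day 2. Against untreated samples, 1/5 for 6 h was at least 1.97-fold higher (adjusted p = 0.0652). Ndufs4 passed the filter on dim probes only through 1/5 for 6 h, the group where it was highest. Its p-values for comparisons with that group are therefore no independent support. Ndufa5 was called higher at 24 h (adjusted p = 0.0485), but it was saturated on every array. Leaving out any 1 of the 6 arrays left 0 of the 73 genes called. With scan day as a block none of these 3 was called, with adjusted p of 0.545 for Ndufs4 and 0.819 for Ndufa5. Sums of other gene lists moved over the same contrast, but not all one way. In units of the array's 75th percentile, the 15 heart muscle markers summed to 30.4 to 34.1 at 6 h and 47.2 to 54.4 at 24 h. The 9 fibroblast markers gave 16.0 to 16.6 and 25.7 to 27.3, and smooth muscle also rose. Macrophages and leukocytes gave 4.29 to 5.31 and 4.24 to 4.68, erythroid sums overlapped too, and endothelium fell. Genes of the tricarboxylic acid cycle, which are not cell type markers, rose as well (27.5 to 30.8 and 40.1 to 42.9). The heart muscle, fibroblast and cycle lists each held 1 gene saturated on all arrays. The part of cell types or scaling in the result was not tested.

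Atp5s, a coupling factor of ATP synthase, fell from 6 h to 24 h at 1/25, by 1.26 ± 0.31 (SE, adjusted p = 0.0428 by limma). It read -2.19, -1.70 and -2.04 at 6 h and -3.26, -3.31 and -3.13 at 24 h, without overlap. On day 1 alone, with 1 array of 6 h, the difference was -1.04. The block for scan day gave -0.92 (adjusted p = 0.155). When any 1 of the remaining 5 arrays was left out, 0 of the 73 genes were called. At concentration 1 it read -2.08, -2.65 and -1.68 at 6 h and -3.26, -2.19 and -2.46 at 24 h, a difference of -0.50, and at 1/5 the difference was -0.84. On the untreated arrays it read -2.94 and -3.36, below every 6 h array. Its differences from untreated at 6 h were 1.01, 0.69 and 1.17 at 1, 1/5 and 1/25, with adjusted p of 0.158, 0.232 and 0.0522. Without replicate 1 of 1/25 for 6 h, the day 1 array, 8 of the 73 genes and 15.7% of all genes were called between 24 h and 6 h: Sdhc, Ndufs6, Atp5g3, Cox6c1 and Atp5s lower at 24 h, and Cox17, Ndufs1 and Atp5a1 higher. At concentration 1 none was called, and 50 of all genes were. At an unadjusted p below 0.05, 2 of the 73 and 2858 of all genes passed there. The smallest adjusted p there belonged to Cox5a (-0.51 ± 0.22), Ndufa2 (0.73 ± 0.33) and Ndufv3l (0.66 ± 0.32).

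The difference between scan days could be estimated in the 2 groups that held both, concentration 1 and 1/25 for 6 h. It was below 0 for 56 of the 73 genes (76.7%), against 53% of all genes, with medians of -0.48 and -0.08. It had the same sign in both groups for 55 genes. The lowest value was -1.23 (Cox17, a copper chaperone of complex IV) and the highest 1.74 (Atp5g3). For 3 genes every day 2 array lay above every day 1 array (7.02% of all genes): Atp5g3, Ndufs6 and Sdhc. For 4 genes every day 2 array lay below (3.7% of all genes): Atp5a1, Cox17, Cox8a and Ndufa2. Atp5g3, for example, read -2.58 to -1.22 on day 1 and -0.71 to 0.34 on day 2. The correlation of the day difference with the GC content of the probe was -0.26 over the 73 genes and -0.15 over all genes, as a description across probes that share the same arrays.

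Some probes of the same gene had mean differences between scan days of opposite sign. Of the 8 genes with several probes, 3 had probes whose day differences had opposite signs, which held for 4 of 10 second probes. For Uqcrb (a subunit of complex III) the day difference was -0.76 for the brightest probe, saturated on 19 arrays, and 1.04 and 1.15 for the other probes, saturated on none. For Ndufc2 (complex I) it was -0.74 for the brightest probe, saturated on 14 arrays, and 1.44 for the other, saturated on none, and the probes correlated at -0.62 over the 20 arrays. For Cox5b it was -0.30 and 0.81, with 1 saturated array for each probe. The -0.30 was the mean of -0.93 at concentration 1 and 0.33 at 1/25. The other Cox5b probe gave 0.48 and 1.14, so at 1/25 both probes were higher on day 2. The difference from untreated at 1/5 for 6 h, all day 2, was correspondingly -0.45 and 1.31 for the Ndufc2 probes. It was -0.42 and 0.90 for the Cox5b probes, and 1.05 and 1.44 for the Uqcrb probes never saturated. The brightest Uqcrb probe was saturated on every array of untreated samples, 1/5 for 6 h and concentration 1 for 24 h. No size is given for it in these groups. At concentration 1 for 24 h, all day 1, the Ndufc2 probes gave 0.25 and 0.40 and the Cox5b probes 0.10 and 0.26. The Uqcrb probes never saturated gave -0.17 and 0.06. The probes of Ndufa9 differed in sign there, at 0.21 and -0.52, and so did those of Ndufs8, at -0.13 and 0.11.

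**Figure D4:**
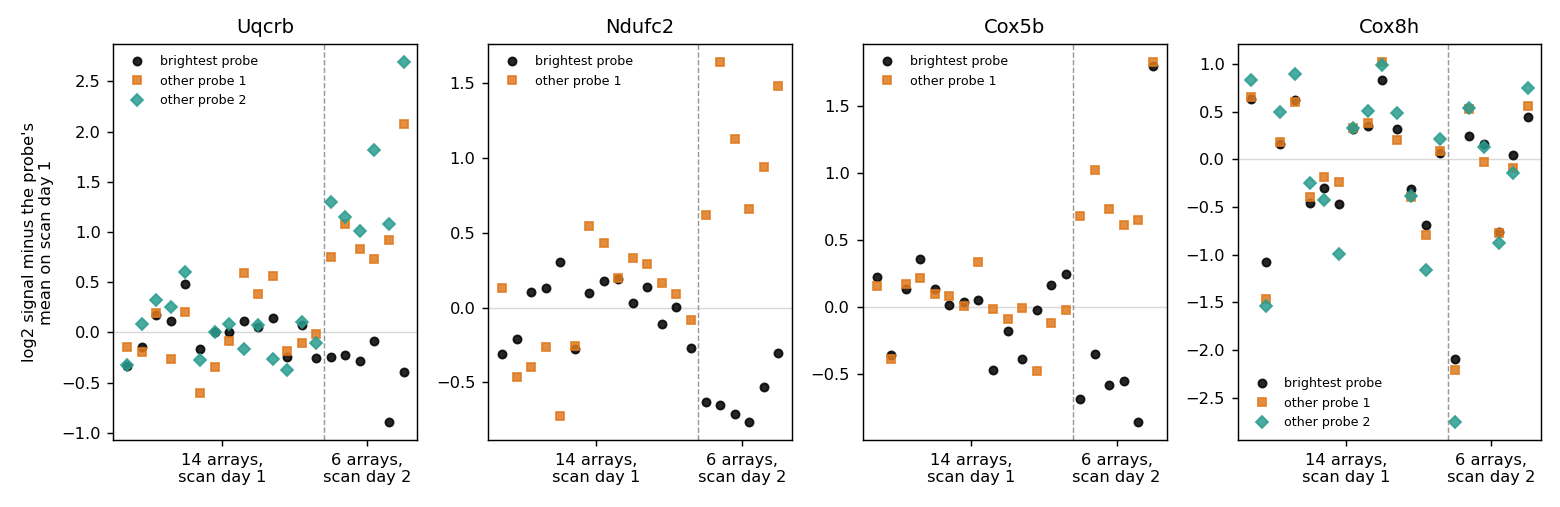
Log2 signal of each probe of 4 genes, minus the probe's own mean over the 14 day 1 arrays, with day 1 arrays left and day 2 arrays right of the dashed line, 1 point per array. For Uqcrb, Ndufc2 and Cox5b the brightest probe (black) has a lower mean on day 2 than on day 1 and the other probes have a higher one, while the 3 Cox8h probes stay together.

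Replicate 3 of 1/25 for 6 h held the highest value of several genes. Cox5b read 3.05 there and at most 1.62 on the other 19 arrays. Ndufv2 (complex I) read 1.85 against at most 0.30 elsewhere, and Ndufa11 1.29 against at most -0.48. Ndufs1 was lowest there, at -5.37, the only array on which it was not well above background. Cox8h instead was lowest on replicate 3 of concentration 1 for 6 h, at -0.32, against 1.94 and 2.40 in the other arrays of that group.

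Genes of the pathway outside the naming rule were read from lists written from general knowledge. Of 17 regulators of mitochondrial gene expression tested, 1 was called lower at 1/5 for 6 h and 2 at 1/25 for 6 h, and none at 24 h against untreated. Of all genes, 6.59% were called at 1/5 for 6 h, 6.06% at 1/25 for 6 h and 2.46% between 24 h and 6 h at 1/25. Polg2, a subunit of the mitochondrial DNA polymerase, fell by 1.72 ± 0.49 (SE) at 1/5 (adjusted p = 0.0447 by limma), and with scan day as a block the difference was -0.46. Ppargc1b, a coactivator of mitochondrial biogenesis, fell by 2.53 ± 0.57 at 1/25 (adjusted p = 0.0255), and the difference was -1.89 (adjusted p = 0.0612) with the block. Tfb1m, a mitochondrial ribosomal RNA methyltransferase, fell by 2.20 ± 0.55 at 1/25 (adjusted p = 0.0324) and was 2.24 ± 0.49 higher at 24 h than at 6 h (adjusted p = 0.0285). With the block these became -2.11 (adjusted p = 0.0501) and 2.16 (adjusted p = 0.0753).

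Of 7 assembly factors with other names, Atpaf2, which assembles the F1 part of ATP synthase, fell by 1.80 ± 0.41 (SE) at 1/5 (adjusted p = 0.0243 by limma) and by 1.79 ± 0.41 at 1/25 (adjusted p = 0.0254) for 6 h. With scan day as a block the adjusted p was 0.154 and 0.0429. The share of all genes called was 6.59% at 1/5 and 6.06% at 1/25 for 6 h without the block. Of 4 genes of coenzyme Q synthesis, Coq4 fell by 1.58 ± 0.46 at 1/25 for 6 h (adjusted p = 0.0494), and with the block by 1.94 (adjusted p = 0.0296). Of 15 carriers and associated proteins, 1 was called, between 24 h and 6 h at 1/5, where 4.75% of all genes were. Vdac3, a channel of the outer membrane, was 1.06 ± 0.29 higher at 24 h there (adjusted p = 0.0486 by limma), and 0.21 with the block. None of 13 genes of the tricarboxylic acid cycle was called in any comparison. Their smallest p belonged to Dlat, a subunit of pyruvate dehydrogenase, at -1.15 ± 0.36 between 24 h and 6 h at 1/5 (adjusted p = 0.0632).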

How the data were processed

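RNA of 20 samples in 7 groups was read on single-colour Agilent arrays. Spot intensity, linear and not normalized between arrays, was deposited as written by version 9.5.3.1 of Agilent's Feature Extraction, as the headers state. A table of linear ratio values by the authors served as an alternative. The processed intensity was taken to log2 and the array's 75th percentile subtracted. Outlier spots were treated as missing, and repeat spots averaged. The brightest probe stood for each gene. A gene was tested if 1 or more groups had it well above background throughout (27729 genes). All 20 arrays were fitted with 7 group means in limma 3.58.1 (R 4.3.3), with 13 residual degrees of freedom (17.1 after moderation). The 12 comparisons were each adjusted over all genes (Benjamini-Hochberg, called below 0.05). Of untreated samples 2 were analysed here, where the series' design names 3 per group. The fit was tested on simulated data. No 2 arrays were identical. Replicate numbers are shared between groups in the labels, but arrays with the same number did not deviate together: of 57 pairs, 9 had a correlation above 0.1.

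Probes saturated on every array of both groups are given no size in the text. A probe well above background in only 1 group is given a bound. The alternatives were quantile normalization, normexp background with an offset of 50, 2 other filters on dim probes, saturated spots as missing, the mean of all probes, slide as a random block (correlation 0.347), scan day as a block or day 1 only, the replicate block, the authors' table, and each array left out. Leaving out 3 genes with other identities and the view of a single slide were chosen after seeing the data. The genes, lists and alternatives were chosen with earlier results of these data known. In each comparison, genes named were the called ones (up to 6 with the smallest adjusted p, or the nearest 3) and a fixed list of isoforms and core subunits. Others were chosen after their values were seen.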

Additional observations from a re-analysis of the deposited data

Results flagged for a closer look

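Results here differed between 6 h and 24 h at the same concentration by the test of the difference itself (limma, adjusted over all genes). Sdhc at 1/5 had a log2 difference of -1.69 between 24 h and 6 h and was lower on 3 of 3 arrays of 24 h than on any array of 6 h. Ndufs4 at 1/5 was at least 2.84-fold lower at 24 h, but it passed the filter on dim probes only through 1/5 for 6 h. Ndufa5 at 1/5 had an adjusted p of 0.0485 and no size, as it was saturated on all 20 arrays. Atp5s at 1/25 had a log2 difference of -1.26, and its 3 arrays of 24 h lay below its 3 arrays of 6 h. At 1/5 the times lay on different scan days and cannot be told apart from them.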

How the results depend on the processing

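Medians over the 73 genes kept within the spread between replicates in 204 of the recomputations and moved beyond it in 11. That spread was the SD of the median within groups, 0.23, pooled over all groups. Concentrations 1 and 1/25 for 6 h, scanned on both days, had SDs of 0.35 and 0.44, and 1/5 and 1/25 for 24 h had 0.02 and 0.004. Smaller moves at 24 h therefore count as kept. Counts of genes called stayed within 1.5 times in 162 and did not in 52. The cause was not tested. Below, counts are of the 73 genes, in the order 1/5 for 6 h, 1/25 for 6 h, 24 h against 6 h at 1/5 and 24 h against 6 h at 1/25 (1, 1, 3 and 1 as reported). The share of all genes called, 6.59%, 6.06%, 4.75% and 2.46% as reported, moved with the setting too. Quantile normalization gave 6 and 3 in the first pair (12.7% and 8.19% of all genes), and 1 at concentration 1 for 6 h (1.06%). Normexp gave 2, 2, 6 and 0 (12.5%, 7.69%, 10.8% and 3.83%). No filter gave 0, 0, 1 and 0 (4.88%, 2.71%, 1.22% and 0.793%). Probes well above background on all arrays gave 3 at 1/25 for 6 h (8.58%) and 8 in the third (10.6%). The mean of all probes gave 0 at 1/5 for 6 h. Slide as a random block gave 0 in all 4. Scan day as a block gave 0, 5, 0 and 0 (1.12%, 11.6%, 0.0252% and 2.29%), and day 1 only gave 0 in the fourth. The replicate block gave 0 and 0 in the first pair, 2 in the third and 1 in the fourth. The authors' table gave 3, 3 and 1 in the first 3 (7.31%, 8.67% and 2.33%). Without the 3 genes of other identity the second was 0. The median difference with scan day as a block was 0.28, 0.50, -0.11 and -0.34, and on day 1 only 0.43 in the second and -0.25 in the fourth. By the authors' table it was 0.43 and 0.56 at 1 and 1/25 for 6 h, and 0.43, 0.56 and 0.41 at 1, 1/5 and 1/25 for 24 h. With each array left out in turn, the counts ranged from 0 to 1 at concentration 1 for 6 h, 0 to 0 at 1/5, 0 to 9 at 1/25, 0 to 0 for 24 h against 6 h at 1/5 and 0 to 8 at 1/25. Saturation and the 2 untreated arrays limit every size given.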
